A study of Homo sapiens with 6 samples.

Results

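Aminoacyl-tRNA synthetases are the enzymes that load each amino acid onto its transfer RNA before translation. The set described here holds 37 synthetase genes, chosen by gene symbol as the enzymes of this family, although earlier results of these data were known when the family was picked, and every symbol was found among the 23228 genes of the count tables. Of the 37, 19 encode enzymes of the cytosol, 16 encode enzymes of mitochondria, and GARS and KARS (dual) each encode both forms from 1 gene. All 37 passed the filter on low counts and were among the 13606 genes tested. All libraries came from MDA-MB-231, a widely used human cell line grown from a triple-negative breast tumour and mesenchymal in character. The 3 libraries labelled knockdown hold RNA of cells given a lentivirus that codes for short hairpin RNA (shRNA) against SCUBE3, a secreted and cell-surface protein. The 3 scramble libraries hold RNA of cells given a lentivirus with scrambled shRNA. Cells of both groups were selected with puromycin, and the labels say that SCUBE3 was checked on western blots without giving the outcome. They give neither the hairpin sequences, the number of hairpins or clones, nor whether replicates were separate cultures. All p-values here thus measure a spread between libraries that may be technical.

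The targeted transcript, SCUBE3, did not show the knockdown at the RNA level. It had 99, 107 and 101 reads in the libraries labelled knockdown, against 96, 91 and 80 reads in the scramble libraries. The log2 fold change was 0.03 ± 0.14 (SE, its standard error; edgeR adjusted p = 0.871). By an exact permutation test, two-sided, its level gave p = 0.8, and 3 against 3 libraries cannot go below 0.1. Every direction below is therefore that of the labels. Reads in genes numbered between 24249429 and 25520901 in the libraries labelled knockdown and between 21348509 and 24234762 in scramble libraries. Reads aligned to several places made up 29.3% to 29.6% of the files labelled knockdown and 34.0% to 34.2% of the scramble files, and the part of this difference in the results was not tested. The line's markers were read in every library but differed between the groups without overlap. VIM and EGFR averaged 2394 and 220.3 CPM in the libraries labelled knockdown, against 4369.9 and 394 CPM in scramble libraries, log2 fold changes of -0.87 and -0.84. CD44 averaged 1045 CPM in the libraries labelled knockdown and 577 CPM in scramble libraries (0.86), and AXL 1139 CPM in the libraries labelled knockdown and 1281 CPM in scramble libraries (-0.17). The part of these shifts in the results was not tested. Another 10 markers were read because they should be low. ESR1, PGR, ERBB3 and GATA3 are breast genes low in this line, and PTPRC, PECAM1, CDH5, ALB, COL1A1 and PDGFRB mark other cell types. Of these 10 markers, ESR1, PTPRC, CDH5 and ALB stayed at or under 0.180 CPM in every library. The remaining 6 were low but differed: PDGFRB averaged 11.0 CPM in the libraries labelled knockdown and 1.54 CPM in scramble libraries. GATA3, COL1A1 and PECAM1 were also higher in the libraries labelled knockdown, with means of 15.5, 9.24 and 2.59 CPM there, against 5.91, 3.99 and 0.975 CPM in scramble libraries. ERBB3 averaged 5.86 CPM in the libraries labelled knockdown and 12.2 CPM in scramble libraries, and PGR had no reads in the libraries labelled knockdown and 0.982 CPM in scramble libraries. The 10 markers together held 43.6 to 45.0 CPM per library labelled knockdown and 25.2 to 27.1 CPM per scramble library, and their part in the results was not tested.

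Synthetases fall into class I and class II by the fold of the catalytic domain, and most amino acids have separate nuclear genes for the cytosolic and the mitochondrial enzyme. In the cytosol, 8 of the enzyme genes listed here encode parts of the multi-synthetase complex, held together by the scaffold proteins AIMP1, AIMP2 and EEF1E1. When amino acids run short, uncharged tRNA activates the kinase GCN2, translation of the transcription factor ATF4 rises, and ATF4 switches on amino acid synthesis enzymes, transporters and many cytosolic synthetase genes through a composite element that contains TGATGNAA.

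The promoters of the synthetases were searched for that element first, because it is the best-known shared input to these genes. RefSeq start-site windows (build GRCh38.p14, 250 bases before to 50 bases after the start) were held for 30 of the 37 genes, 9 of them with 2 windows for different starts. The motif TGATGNAA, on either strand, was found in 8 of the 30 genes (26.7%), against 1217 of 27305 genes with such windows (4.46%). It was found in 7 of the 16 cytosolic or dual genes with a window and in 1 of the 14 mitochondrial ones, YARS2. The 7 stretches are printed 5′ to 3′ along each gene's strand, with the match, read here mostly as its reverse complement TTGCATCA, in capitals.
NARS: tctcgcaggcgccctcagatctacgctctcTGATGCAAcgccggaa
MARS: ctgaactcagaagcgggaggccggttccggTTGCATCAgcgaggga
CARS: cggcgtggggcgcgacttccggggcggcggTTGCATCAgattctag
IARS: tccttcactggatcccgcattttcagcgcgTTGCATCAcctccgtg
TARS: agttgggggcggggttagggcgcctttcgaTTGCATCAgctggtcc
GARS: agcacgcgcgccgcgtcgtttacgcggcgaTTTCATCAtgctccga
AARS: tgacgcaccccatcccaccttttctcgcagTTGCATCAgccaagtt
The NARS stretch lies at chr18:57621807-57621852, minus strand, the MARS stretch at chr12:57488034-57488079, plus strand, the CARS stretch at chr11:3057410-3057455, minus strand and the IARS stretch at chr9:92293695-92293740, minus strand. Those of TARS, GARS and AARS lie at chr5:33440937-33440982, plus strand, at chr7:30594815-30594860, plus strand and at chr16:70289678-70289723, minus strand. In 6 of the 7 genes the match began between 33 bases before and 15 bases after the start site, and in AARS it began 187 bases before it. A match is a string of letters and does not show that a factor binds there.

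Transcripts of the cytosolic synthetases were mostly lower in the libraries labelled knockdown, and those of the mitochondrial enzymes were mostly lower by less. Some genes of each compartment were higher. Values are CPM, the reads of a gene brought to 1 common total of reads in genes and scaled by TMM factors, and a gene is said to have risen or fallen where its adjusted p was under 0.05 in edgeR's quasi-likelihood test over all 13606 genes. Of the 37 synthetase genes, 26 fell and 9 rose, and CARS2 and PARS2 did not pass. Over all genes tested, 42.5% fell and 43.4% rose, so that 85.9% passed in either direction and a call on its own says little. These shares are to be set beside every count of fallen or risen genes below. The groups did not overlap in 35 of the 37 synthetases. The share of all genes whose groups do not overlap was not computed, so a lack of overlap says little on its own. The share that fell was 70.3% among the synthetases and 73.7% among the 19 cytosolic ones, of which 14 fell and 5 rose. The median log2 fold change was -0.66 for the cytosolic genes and -0.18 for the mitochondrial genes, of which 10 fell and 4 rose, beside 0.01 for all genes tested. Against a change of 1.5-fold in place of none (edgeR glmTreat), 13 synthetases were lower, of which 10 cytosolic, 2 mitochondrial and 1 dual, and 2 were higher, both mitochondrial. By that test 21.6% of all genes were lower and 24.3% higher. No test compared the synthetases with other genes as a set.

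**Figure D1:**
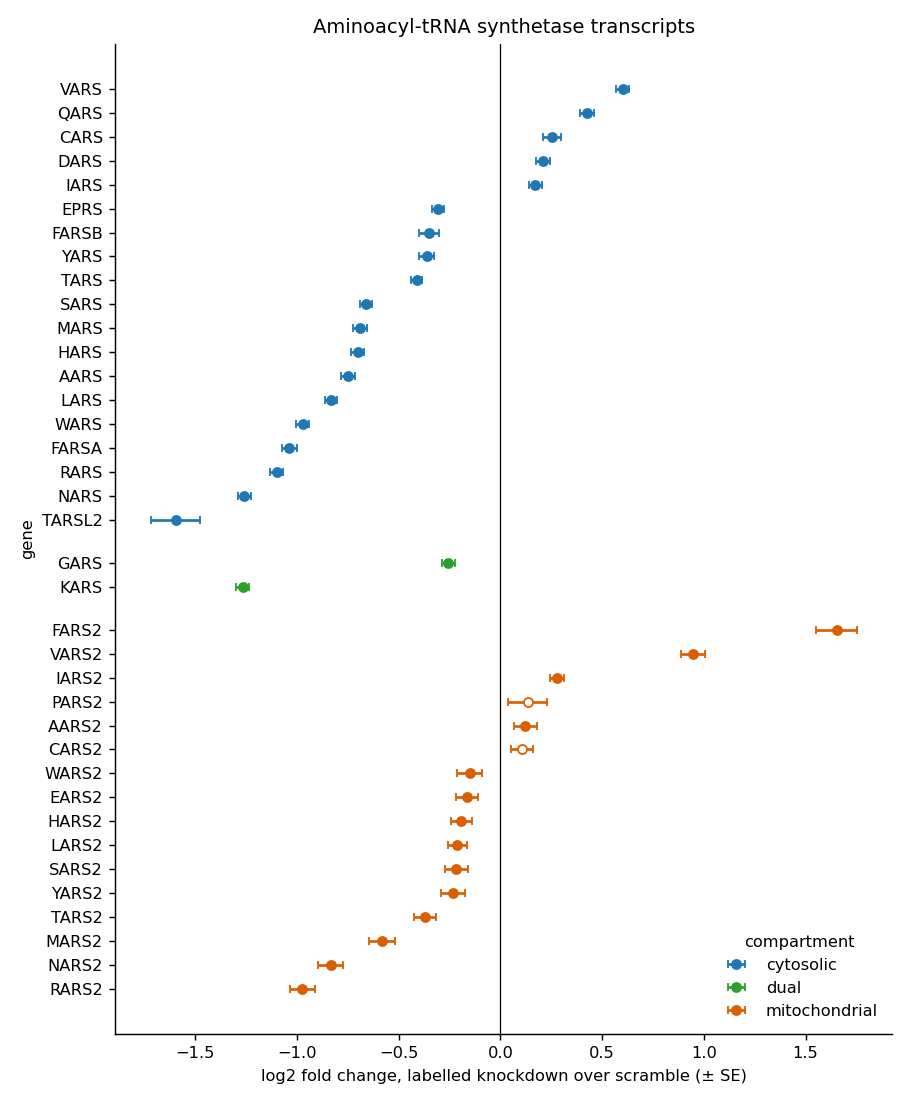
Log2 fold change (labelled knockdown over scramble, x axis) of each of the 37 synthetase genes (y axis), with bars for the standard error; colours give the compartment and open circles mark CARS2 and PARS2, which did not pass an adjusted p of 0.05. The cytosolic genes run from -1.60 (TARSL2) to 0.60 (VARS), and the mitochondrial genes from -0.97 (RARS2) to 1.65 (FARS2).

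The summed levels were lower for the cytosolic and dual genes, while the mitochondrial sum depended on IARS2. The 19 cytosolic transcripts together held 3925, 3972 and 3897 CPM in the libraries labelled knockdown, against 5481, 5464 and 5387 CPM in the scramble libraries. The groups were far apart, and the mean was 27.8% lower in the libraries labelled knockdown. The 2 dual genes together held 492, 488 and 475 CPM in the libraries labelled knockdown, against 818, 789 and 806 CPM in the scramble libraries, a mean 39.7% lower. The 16 mitochondrial transcripts together held 756, 738 and 738 CPM in the libraries labelled knockdown, against 725, 750.0 and 749 CPM in the scramble libraries. Here the libraries of the groups overlapped. IARS2, the most abundant of the 16 and higher in the libraries labelled knockdown, made up much of that sum. The other 15, summed without it after its values were seen, held 499, 495 and 491 CPM in the libraries labelled knockdown, against 524, 541 and 543 CPM in the scramble libraries, a mean 7.69% lower without overlap. These are bulk libraries, so fewer cells that express a gene and less RNA per cell cannot be told apart.

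**Figure D2:**
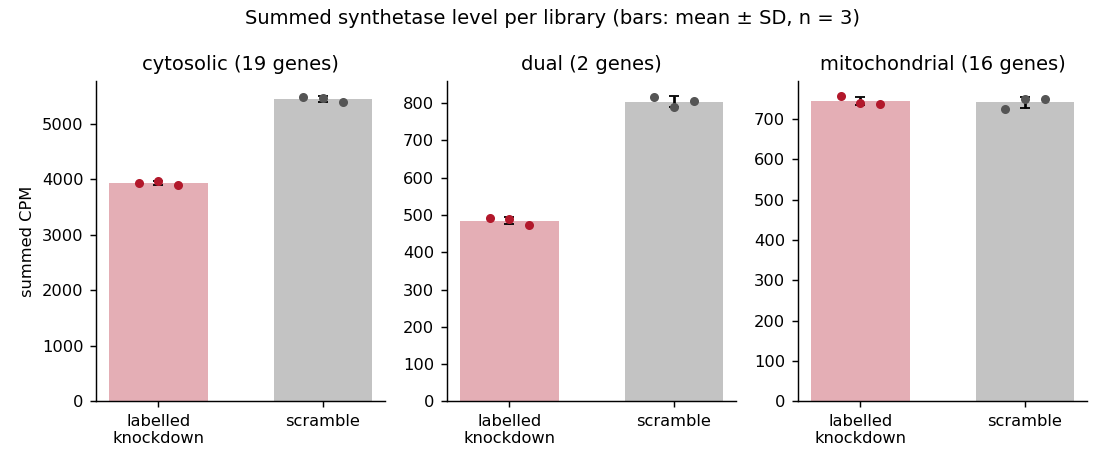
Summed CPM of the synthetase transcripts per compartment (y axis, starting at 0), with 1 point per library and bars for the mean ± SD (n = 3). The cytosolic and dual sums are lower in every library labelled knockdown than in any scramble library, and the mitochondrial sums of the groups overlap when IARS2 is included.

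Among the cytosolic and dual enzymes, 5 had log2 fold changes below -1. Over all genes, 13.8% passed and were that much lower, and 17.5% passed with a log2 fold change of at least 1. NARS, which charges asparagine, had 235, 237 and 234 CPM in the libraries labelled knockdown, against 583, 551 and 552 CPM in the scramble libraries. All 3 libraries labelled knockdown lay far below every scramble library, with a log2 fold change of -1.26 ± 0.03 (SE; edgeR adjusted p = 1.88e-31), or 2.39-fold lower. KARS, the lysine enzyme of both compartments, had 184, 192 and 181 CPM in the libraries labelled knockdown, against 451, 436 and 453 CPM in the scramble libraries. Its log2 fold change was -1.27 ± 0.03 (edgeR adjusted p = 6.72e-31), and the groups did not overlap.

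RARS, the arginine enzyme, had 157, 159.6 and 158 CPM in the libraries labelled knockdown, against 335, 339.8 and 342 CPM in the scramble libraries. It was 2.14-fold lower, with a log2 fold change of -1.10 ± 0.03 (SE). FARSA, which encodes the catalytic subunit of the phenylalanine enzyme, had 189, 202 and 181 CPM in the libraries labelled knockdown, against 393, 406 and 376 CPM in the scramble libraries. This was 2.05-fold lower (-1.04 ± 0.04), again without overlap. TARSL2, a threonine enzyme gene related to TARS, was the least abundant synthetase. It had 95, 125 and 114 reads in the libraries labelled knockdown, against 380, 238 and 279 reads in the scramble libraries, means of 4.41 ± 0.536 CPM and 13.3 ± 2.41 CPM (SD, n = 3 each). Its log2 fold change of -1.60 ± 0.12 was the lowest of the 37.

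The next group fell by less. WARS, the tryptophan enzyme, had 141, 143 and 141 CPM in the libraries labelled knockdown, against 274, 286 and 274 CPM in the scramble libraries, a log2 fold change of -0.97 ± 0.03 (SE). Its exons overlap those of WDR25 on the other strand, and 9.14% of its 50-base stretches are shared with other genes. LARS, the leucine enzyme that also signals leucine to mTORC1, averaged 240.1 ± 2.49 CPM in the libraries labelled knockdown and 427 ± 14.8 CPM in scramble libraries (SD, n = 3), 1.78-fold lower. AARS, the alanine enzyme, was 1.68-fold lower and averaged 151 ± 3.03 CPM in the libraries labelled knockdown and 253 ± 5.81 CPM in scramble libraries. HARS, the histidine enzyme, averaged 143 ± 1.75 CPM in the libraries labelled knockdown and 232 ± 3.59 CPM in scramble libraries. HARS fell 1.63-fold, but 23.4% of the 50-base stretches of its transcript occur in other genes, mostly in its neighbour and relative HARS2, so the split of reads between the 2 is uncertain. MARS, for methionine, and SARS, for serine, were 1.61-fold and 1.58-fold lower. Exons of MARS and DDIT3 overlap by 62 bases on opposite strands, and how such reads were counted is not known here. These 6, NARS, RARS, FARSA and TARSL2 are the 10 cytosolic genes that were lower by more than 1.5-fold in the glmTreat test.

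Smaller decreases were seen for TARS, YARS, FARSB, EPRS and GARS. TARS, the threonine enzyme and the synthetase with the most reads, had 523, 504 and 508 CPM in the libraries labelled knockdown, against 687, 676 and 678 CPM in the scramble libraries. The groups were separate although the log2 fold change was only -0.41 ± 0.03 (SE). YARS, for tyrosine, fell with a log2 fold change of -0.36, and EPRS, the fused enzyme for glutamate and proline, with one of -0.31. Exons of YARS overlap those of S100PBP on the other strand, and 9.31% of the 50-base stretches of YARS occur in other genes. GARS, the glycine enzyme of both compartments, had 308, 296 and 294 CPM in the libraries labelled knockdown, against 367, 353 and 352 CPM in the scramble libraries. Its log2 fold change was -0.26 ± 0.03, against -1.27 ± 0.03 for KARS, the other dual gene. Per kilobase of transcript, the ratio of KARS to GARS was 0.816 ± 0.0356 in the libraries labelled knockdown and 1.64 ± 0.0421 in scramble libraries (SD, n = 3).

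FARSB, the second subunit of the phenylalanine enzyme, averaged 88.1 ± 2.18 CPM in the libraries labelled knockdown and 112 ± 10.9 CPM in scramble libraries (SD, n = 3), and its log2 fold change was -0.35 ± 0.05 (SE). The protein holds equal numbers of both subunits, but the transcripts did not change equally. Per kilobase of transcript, the ratio of FARSA to FARSB was 4.08, 4.29 and 3.73 in the libraries labelled knockdown, against 6.44, 6.14 and 6.91 in the scramble libraries, without overlap.

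The cytosolic genes that rose were VARS, QARS, CARS, DARS and IARS. VARS, the valine enzyme, had 309, 323 and 308 CPM in the libraries labelled knockdown, against 208, 210.4 and 202 CPM in the scramble libraries. It rose 1.52-fold, with a log2 fold change of 0.60 ± 0.03 (SE; edgeR adjusted p = 5.28e-20). QARS, the glutamine enzyme, had 215, 221 and 218 CPM in the libraries labelled knockdown, against 158, 166 and 163 CPM in the scramble libraries, and rose 1.34-fold. Both were separate between the groups in every library. CARS, for cysteine, DARS, for aspartate, and IARS, for isoleucine, rose by less, with log2 fold changes of 0.25, 0.21 and 0.17. None of the 5 passed the test against a 1.5-fold change.

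**Figure D3:**
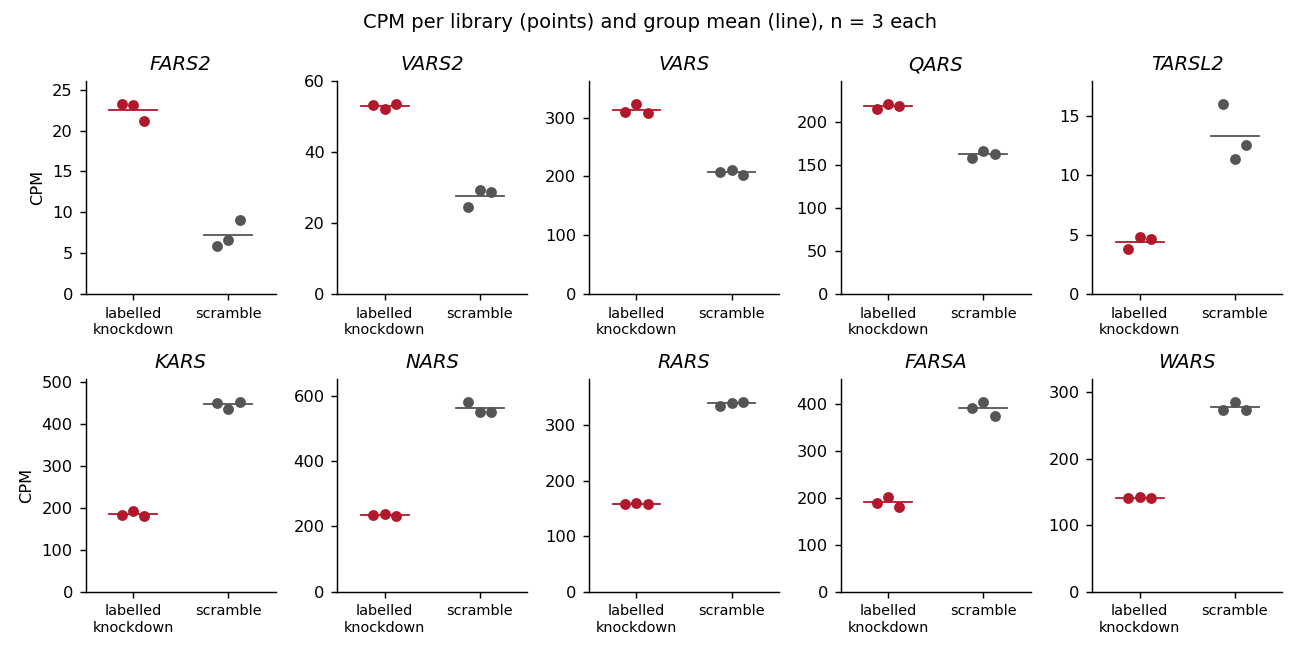
CPM (y axis, starting at 0) of 10 synthetase genes in each library (points) with the group mean (line). FARS2, VARS2, VARS and QARS are higher and TARSL2, KARS, NARS, RARS, FARSA and WARS lower in every library labelled knockdown than in any scramble library.

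The genes of the multi-synthetase complex did not move together. Of its 8 enzymes, 5 fell and 3 rose: KARS, RARS, LARS and MARS fell by more than 1.5-fold and EPRS by 1.24-fold, whereas QARS, DARS and IARS rose. Their levels summed to 1841 ± 16.9 CPM in the libraries labelled knockdown and 2499 ± 13.6 CPM in scramble libraries (SD, n = 3). The 3 scaffold genes went the other way and all rose. EEF1E1, which encodes the scaffold protein p18, had 36.2, 38.9 and 36.3 CPM in the libraries labelled knockdown, against 19.9, 19.6 and 19.6 CPM in the scramble libraries. AIMP1, which encodes p43, had 69.7, 70.5 and 69.9 CPM in the libraries labelled knockdown, against 42.2, 41.1 and 38.7 CPM in the scramble libraries, and AIMP2, which encodes p38, averaged 64.7 ± 3.72 CPM in the libraries labelled knockdown and 42.9 ± 1.54 CPM in scramble libraries. Their log2 fold changes were 0.92, 0.79 and 0.59, each with non-overlapping groups. Of the 13 cytosolic and dual enzymes outside the complex, 11 fell and 2 rose, with a median of -0.66, against -0.50 for the 8 within it. The shares over all genes tested were 42.5% lower and 43.4% higher, and no test compared enzymes within and outside the complex.

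Among the mitochondrial enzymes, FARS2 and VARS2 stood out as higher. FARS2, the single-chain phenylalanine enzyme of mitochondria, had 23.3, 23.1 and 21.2 CPM in the libraries labelled knockdown, against 5.85, 6.63 and 9.09 CPM in the scramble libraries. It was 3.14-fold higher, the largest rise of the 37, with a log2 fold change of 1.65 ± 0.10 (SE; edgeR adjusted p = 1.55e-16). The scramble libraries spread more than those labelled knockdown, and leaving out any 1 library kept the log2 fold change between 1.51 and 1.85. VARS2, the mitochondrial valine enzyme, had 53.2, 52.2 and 53.7 CPM in the libraries labelled knockdown, against 24.6, 29.2 and 28.9 CPM in the scramble libraries, a rise of 1.93-fold (0.95 ± 0.06). IARS2, the isoleucine enzyme and the most abundant of the 16, had 258, 244 and 247 CPM in the libraries labelled knockdown, against 202, 209 and 207 CPM in the scramble libraries, and rose 1.21-fold.

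RARS2, NARS2 and MARS2 fell most among the mitochondrial enzymes. RARS2, for arginine, had 21.8, 20.1 and 20.8 CPM in the libraries labelled knockdown, against 39.9, 40.0 and 43.4 CPM in the scramble libraries, a log2 fold change of -0.97 ± 0.06 (SE). NARS2, for asparagine, had 22.2, 20.9 and 19.1 CPM in the libraries labelled knockdown, against 36.5, 36.3 and 38.0 CPM in the scramble libraries, a log2 fold change of -0.83 ± 0.06. MARS2, for methionine, averaged 19.8 ± 0.281 CPM in the libraries labelled knockdown and 29.7 ± 1.38 CPM in scramble libraries (SD, n = 3), with a log2 fold change of -0.58. All 3 were lower in every library labelled knockdown than in any scramble library, a separation whose share over all genes was not computed.

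The other mitochondrial genes changed by less. TARS2, YARS2, SARS2, LARS2, HARS2, EARS2 and WARS2 fell, with log2 fold changes between -0.37 and -0.15. Of SARS2, the serine enzyme, 86.9% of the 50-base stretches also occur in other GENCODE genes, mainly in a read-through gene that the count tables do not list. Of HARS2, 15.7% do, mostly in HARS. Exons of SARS2, EARS2 and AARS2 also overlap those of MRPS12, UBFD1 and TMEM151B, in that order, on the other strand. AARS2, the mitochondrial alanine enzyme, rose (0.12 ± 0.06 SE) but barely passed (edgeR adjusted p = 0.0423). Its adjusted p was over 0.05 without low-count filter, with DESeq2 and without any 1 library other than replicate 3 of those labelled knockdown (0.00474 to 0.152 over 15 alternatives). That of WARS2 was over 0.05 with library totals, with DESeq2, and without replicate 2 or 3 labelled knockdown or scramble replicate 2, and that of EARS2 with library totals. CARS2 had a log2 fold change of 0.11 ± 0.05 and PARS2, the proline enzyme, one of 0.13 ± 0.09, and neither passed (edgeR adjusted p = 0.0614 and 0.181).

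Enzymes for the same amino acid could be set side by side for 17 pairs of a cytosolic and a mitochondrial gene, with FARSA and FARSB each paired with FARS2 and EPRS with both EARS2 and PARS2. TARSL2 was not paired. In 16 of the 17 the cytosolic log2 fold change was the lower one. The ratio of cytosolic to mitochondrial CPM did not overlap between the groups in 14 of the 17, and it was lower in the libraries labelled knockdown in all 14. How often the ratios of other gene pairs overlap was not computed. With 85.9% of all genes passing in either direction, the count of ratios without overlap says little on its own. The exceptions by overlap were RARS with RARS2, TARS with TARS2 and CARS with CARS2. The widest gaps were those for phenylalanine (-1.04 for FARSA and 1.65 for FARS2) and alanine (-0.75 for AARS and 0.12 for AARS2). Tryptophan followed, with -0.97 for WARS and -0.15 for WARS2. In several pairs both genes changed in the same direction. The closest pair was that for threonine, with -0.41 for TARS and -0.37 for TARS2. For arginine the log2 fold changes were -1.10 for RARS and -0.97 for RARS2, and for methionine -0.69 for MARS and -0.58 for MARS2. Asparagine (-1.26 for NARS and -0.83 for NARS2) and valine (0.60 for VARS and 0.95 for VARS2) had wider gaps, and the ratios of the methionine, asparagine and valine pairs did not overlap between the groups. The pairs share libraries, and no test was made over them.

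**Figure D4:**
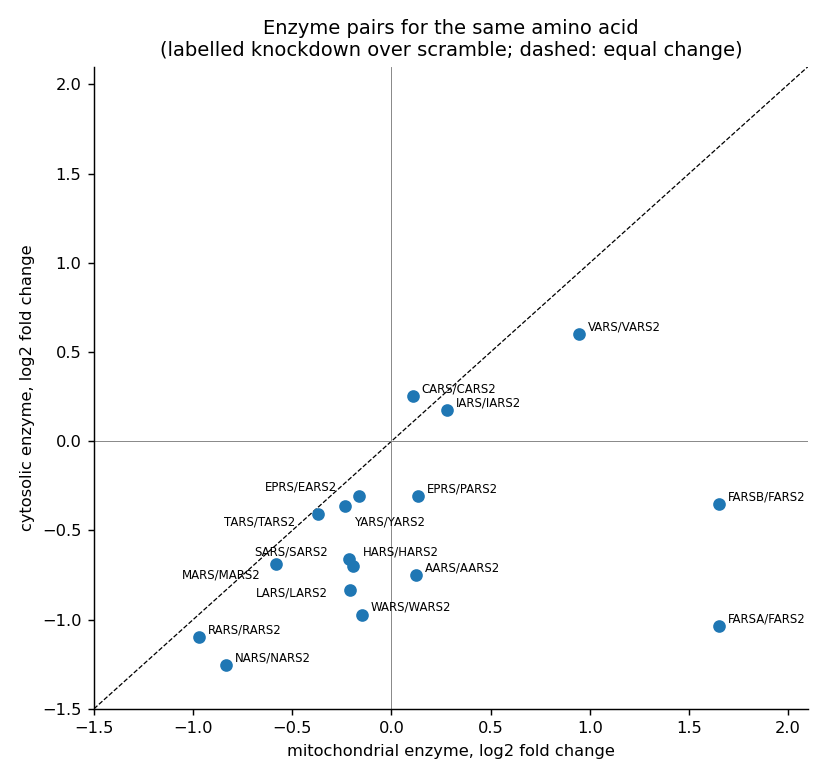
Log2 fold change (labelled knockdown over scramble) of the cytosolic enzyme (y axis) against that of the mitochondrial enzyme for the same amino acid (x axis), 1 point for each of the 17 pairs, with a dashed line where both are equal. Only CARS with CARS2 lies above the line, and the points farthest below it are FARSA and FARSB with FARS2.

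Levels per kilobase of transcript, with lengths from 1 GENCODE transcript per gene, were higher for the cytosolic and dual genes than for the mitochondrial ones in both groups, apart from IARS2 and TARSL2. FARSB and CARS2 did not differ beyond their spread in the libraries labelled knockdown. In the libraries labelled knockdown SARS was highest, with 127 ± 2.18 CPM per kb in the libraries labelled knockdown and 200.5 ± 3.96 in scramble libraries (SD, n = 3). In scramble libraries KARS was highest, with 92.6 ± 2.94 CPM per kb in the libraries labelled knockdown and 223 ± 4.64 in scramble libraries. KARS thus stood first of the 37 in scramble libraries, and in the libraries labelled knockdown its rank was 6, where it did not differ from IARS at rank 5. FARSA had 105 ± 5.82 CPM per kb in the libraries labelled knockdown and 216 ± 8.31 in scramble libraries, where the scramble level lay within the SD of FARSA of that of KARS. TARSL2 was lowest in both groups, with 1.22 ± 0.149 CPM per kb in the libraries labelled knockdown and 3.68 ± 0.668 in scramble libraries. Among mitochondrial enzymes IARS2 was highest, with 70.1 ± 2.01 CPM per kb in the libraries labelled knockdown and 57.8 ± 0.989 in scramble libraries, and PARS2 was lowest in the libraries labelled knockdown, with 5.17 ± 0.592 CPM per kb in the libraries labelled knockdown and 4.72 ± 0.337 in scramble libraries. FARS2 was the lowest mitochondrial one in scramble libraries, with 13.3 ± 0.675 CPM per kb in the libraries labelled knockdown and 4.25 ± 0.999 in scramble libraries, where it did not differ from PARS2 beyond the spread.

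**Figure D5:**
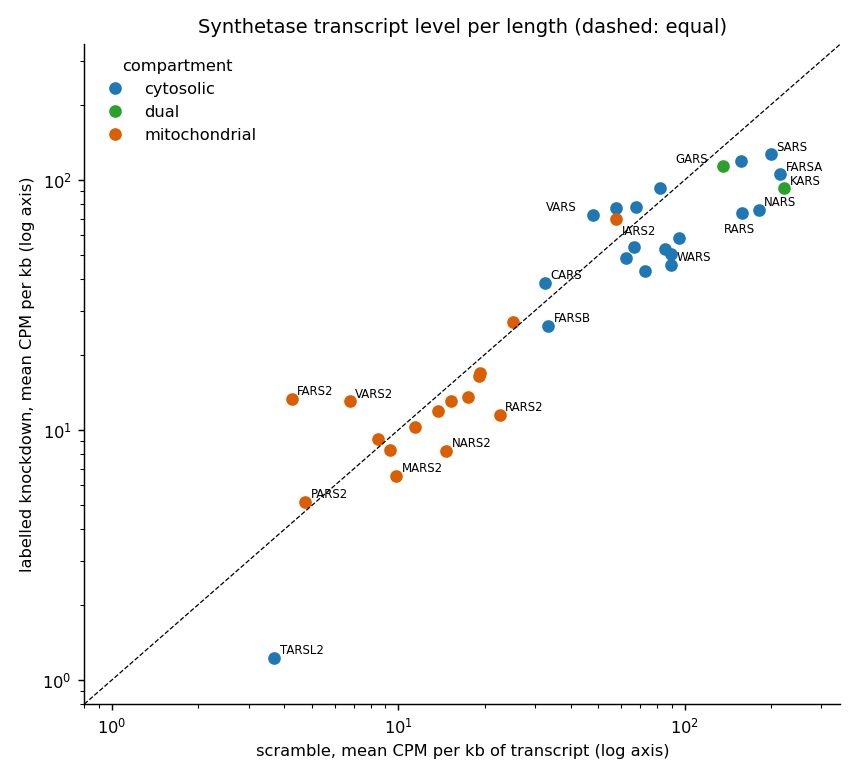
Mean CPM per kilobase of transcript of each synthetase in the libraries labelled knockdown (y axis) against scramble libraries (x axis), both log axes, coloured by compartment, with a dashed line where both are equal. FARS2 and VARS2 lie above the line among the mitochondrial genes, and KARS, NARS, RARS and FARSA below it among the most abundant genes.

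By catalytic class, 14 of the 18 genes of class II fell and 3 rose (median -0.39), and 11 of the 18 genes of class I fell and 6 rose (median -0.19). EPRS holds a domain of each class and was left out. Over all genes tested 42.5% fell and 43.4% rose, and no test compared the classes or the motif groups that follow. The genes with TGATGNAA near their start, printed above, changed in both directions. Their log2 fold changes were -1.26 for NARS, -0.75 for AARS, -0.69 for MARS, -0.41 for TARS, -0.26 for GARS, 0.17 for IARS and 0.25 for CARS. Their median was -0.41, with 5 lower and 2 higher. The 9 other cytosolic and dual genes with a start-site window had a median of -0.70, with 8 lower and 1 higher.

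Genes around the phosphorylation of eIF2alpha were mostly lower, but the amino acid sensor itself did not pass. ATF4 itself was lower (116 ± 3.25 CPM in the libraries labelled knockdown and 140.0 ± 9.65 CPM in scramble libraries, SD, n = 3), with a log2 fold change of -0.27. EIF2AK4, which encodes GCN2, averaged 132 ± 4.37 CPM in the libraries labelled knockdown and 132 ± 3.06 CPM in scramble libraries and did not pass (edgeR adjusted p = 0.959). The list of 10 holds ATF4, GCN2 and its partners, eIF2alpha, its phosphatase subunits and the kinases that answer to other stresses. Of these 10 genes 7 fell and 2 rose, with a median of -0.27. PPP1R15A, which encodes the stress-induced GADD34 subunit that removes phosphate from eIF2alpha, had 129, 144 and 134 CPM in the libraries labelled knockdown, against 425, 414 and 423 CPM in the scramble libraries. All libraries labelled knockdown were lower, with a log2 fold change of -1.63 ± 0.04. EIF2AK2, the kinase PKR that answers to double-stranded RNA, fell too (-1.12), as did GCN1L1, a partner of GCN2 (-0.30), and EIF2AK3, the kinase PERK of the endoplasmic reticulum, rose (0.90).

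ATF4 target genes other than synthetases were split. Of 32 tested, 16 fell, 14 rose and 2 did not pass, with a median of -0.18, and CBS had no reads. XPOT, the exportin that carries tRNA out of the nucleus, had 123, 118 and 116 CPM in the libraries labelled knockdown, against 380.5, 342 and 351 CPM in the scramble libraries. All libraries labelled knockdown were lower, with a log2 fold change of -1.59 ± 0.04 (SE). The serine and glycine synthesis genes PHGDH (-4.98) and SHMT2 (-1.88) were lower, and DDIT4, an inhibitor of mTORC1, was higher (3.59).

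WARS is known as an interferon-gamma inducible synthetase, and a stretch near 1 of its start sites (chr14:100375383-100375499, minus strand, GRCh38.p14, RefSeq) holds letters of 2 interferon motifs, which is why it is shown. The capitals mark a match to TTCNNNGAA, the gamma-interferon activated site, and one to TTTC and TTTC spaced by 2 bases, the core of the interferon-stimulated response element, on the other strand.
WARS: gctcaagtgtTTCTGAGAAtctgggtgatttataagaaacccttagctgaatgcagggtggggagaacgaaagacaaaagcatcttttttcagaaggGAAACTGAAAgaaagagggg
Windows of 9.38% of all genes hold the first of these motifs and 4.38% the second, and 5 (16.7%) and 2 (6.67%) of the 30 synthetase genes do. While WARS fell, most listed genes of the interferon-gamma pathway rose. Of 16 interferon-gamma pathway genes tested 14 rose and 2 fell, with a median of 1.65, and CXCL9 had no reads. TAP1, which loads peptides for MHC class I, averaged 156 ± 1.28 CPM in the libraries labelled knockdown and 25.3 ± 1.08 CPM in scramble libraries (SD, n = 3). The transcription factor gene IRF1 averaged 75.9 ± 2.39 CPM in the libraries labelled knockdown and 20.3 ± 1.99 CPM in scramble libraries, and GBP2 and CIITA had log2 fold changes of 2.83 and 5.31. The kinase gene JAK2 was lower (-0.50 ± 0.10 SE).

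Most mitochondrial translation factors also fell. Of 12 tested, 8 fell, 3 rose and 1 did not pass, with a median of -0.67, against -0.18 for the 16 mitochondrial synthetases. MTIF2, the initiation factor, averaged 76.7 ± 1.65 CPM in the libraries labelled knockdown and 149 ± 1.88 CPM in scramble libraries (SD, n = 3), with a log2 fold change of -0.96 ± 0.04 (SE). The elongation factor genes TSFM (-0.91) and GFM1 (-0.61) and the translation factor gene GUF1 (-0.74) were lower as well.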

How the data were processed

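The authors deposited whole-number read counts per gene, not normalized, in 1 file for each library. Per the labels' protocols, the kit was stranded and selected polyA RNA. The submitters' processing notes name bcl2fastq, HTSeq, TopHat2 2.0.8b and build hg19. The strand mode of HTSeq and its annotation were not given in the sources used here. The 5 summary lines of each file were left out. After filterByExpr and TMM, edgeR 4.0.16 in R 4.3.3 tested each of 13606 genes (robust quasi-likelihood F test, two-sided, group alone, Benjamini-Hochberg, threshold 0.05). SE is the log2 fold change over the root of F. The biological coefficient of variation was 3.21%. Tested on simulated data for these 13606 genes, the fit recovered 68% of 1.2-fold and 91.8% of 1.5-fold changes. In the simulated data few genes were changed and all shared a common dispersion, whereas 11681 of the measured genes passed. These rates may thus not hold for the measured comparison. Lengths and shared 50-base stretches came from GENCODE, promoters from RefSeq (GRCh38.p14), and no hg19 coordinate was used. Two-sided permutation tests used scipy 1.17.1.

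Named were all 37 synthetases, with values per library where the log2 fold change was at least 1 in size and for the most abundant gene of each compartment, and up to 4 genes of each list by smallest adjusted p. Values per library of other genes, and the genes ATF4, EIF2AK4 and JAK2, were added after values were seen. Some genes of the lists are counted but not reported by name here. The family and the lists were picked with earlier results of these data known, though no measured value enters the rule for the 37. Alternatives were 3 other scalings, 2 other low-count filters, DESeq2 1.42.0, limma-voom (limma 3.58.1), the replicate number as a block, leaving out each library, a threshold of 0.01 and a test against 1.5-fold.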

Additional observations from a re-analysis of the deposited data

How the results depend on the processing

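No synthetase changed direction under any of the 16 alternatives: of 592 recomputed values, 552 kept their side of the threshold, 35 lost a call and 5 gained one. The test against a 1.5-fold change (edgeR glmTreat) called 13 synthetases lower and 2 higher. By compartment, it left 0 cytosolic genes higher, 2 mitochondrial genes lower and 2 higher, and 1 dual gene lower, and of the 132 pathway genes 26 lower and 27 higher; it called 6251 of all genes, against 11681. This test asks for a larger change by construction. Under the 15 others, 24 to 26 synthetases were lower and 8 to 10 higher, and the cytosolic counts stayed at 14 and 5. With the replicate block the counts were 26 lower and 10 higher, and 11706 genes passed in all. Same-numbered libraries had correlations of their deviations of 0.0779, 0.0623 and -0.0019, so the numbers were not taken as pairs, and not every library correlated best with its own number. Leaving out 1 library at a time, the log2 fold change of SCUBE3 ranged from -0.0503 (without scramble replicate 3) to 0.0796 (without scramble replicate 2), and the cause was not tested. CARS2 passed with library totals, with the block and without replicate 1 labelled knockdown or scramble replicate 3, and PARS2 without replicate 3 labelled knockdown. Library totals moved the median of all genes by 0.05 (log2). The member with the fewest reads had 95 in its lowest library, so depth limits its fold change most.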

Other observations

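The machinery that makes and trims tRNA moved in both directions. Of 20 genes of RNA polymerase III and its factors, 12 fell, 5 rose and 3 did not pass; their log2 fold changes had a median of -0.22. BDP1, a part of the initiation factor TFIIIB, averaged 88.1 ± 4.47 CPM in the libraries labelled knockdown and 175 ± 9.61 CPM in scramble libraries (SD, n = 3), with a log2 fold change of -0.99 ± 0.04 (SE). The subunit genes POLR3C (-0.77) and POLR3G (-0.93) fell. Of 20 tRNA processing and export genes, 10 fell, 7 rose and 3 did not pass (median -0.12). SSB, the La protein that binds new RNA polymerase III transcripts, was lower (-0.79), as were the tRNA methyltransferase gene NSUN2 (-0.54) and the splicing endonuclease subunit gene TSEN15 (-0.63).

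Of 10 enzymes that act beside the synthetases on tRNA, 5 fell, 3 rose and 2 did not pass (median -0.19). TRNT1, which adds the CCA end that every synthetase needs, averaged 19.4 ± 1.16 CPM in the libraries labelled knockdown and 38.6 ± 3.88 CPM in scramble libraries (SD, n = 3), lower without overlap (edgeR adjusted p = 2.96e-16). DTD1, which removes D-amino acids from tRNA, was lower (-0.63), QRSL1, a part of the mitochondrial enzyme that makes glutaminyl-tRNA, was lower (-0.32), and YRDC, which helps to modify tRNA, was higher (0.68). Of 8 cytosolic elongation factor genes, 6 fell, 1 rose and 1 did not pass (median -0.22). EEF1G (-0.97) and EEF1A1 (-0.66), whose reads may be shared with pseudogene copies, EEF1A2 (-0.71) and the kinase gene EEF2K (-0.28) were lower. The 1 gene called higher, EEF1D (0.10), named after its value was seen, lost its call without scramble replicate 1.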
